A study of Mus musculus with 10 samples.

Results

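The 42 genes described here copy DNA or carry out mitosis. They were taken by gene symbol, 20 for replication and 22 for mitosis, from the 17363 named genes of the table. All 42 were found, and all 42 passed the filter on low values, which asked for 10 or more normalized counts in 2 or more of the 8 replicates and kept 14473 genes. A normalized count is a read count divided by a size factor for its library. The RNA came from tumour-infiltrating CD4+CD25- T cells, sorted from breast tumours of C57BL/6 mice at 23 weeks of age and read by RNA sequencing. Each genotype carried the PyMT transgene, a viral oncogene that gives mammary tumours, and loxP-flanked (floxed) Tgfbr2, which encodes a TGF-beta receptor subunit. Il4-/-KO cells came from Il4-/-ThPOKCreTgfbr2fl/flPyMT mice, in which Cre under ThPOK, a factor of the CD4 lineage, deletes Tgfbr2 and the cytokine gene Il4 is mutated. KO cells came from ThPOKCreTgfbr2fl/flPyMT mice with Il4 intact. Il4-/- cells came from Il4-/-Tgfbr2fl/flPyMT mice without Cre. WT cells came from Tgfbr2fl/flPyMT mice, so WT also carried the floxed alleles and the oncogene. Each genotype had 2 replicates, and each KO replicate had a first and a repeat library made from the same RNA, which gave 10 libraries. Whether the 2 replicates of a genotype are different mice is not stated in the labels, so the p-values reflect how far these samples spread, and part of that spread may be technical.

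A cell that divides first copies its genome and then separates the copies. The MCM2-7 ring is loaded on replication origins by Cdc6 and Cdt1 and, with Cdc45 and the GINS complex, unwinds the DNA, while the Pcna clamp holds polymerases on it and ribonucleotide reductase supplies building blocks. Mitosis is driven by CDK1 with A and B cyclins and by Aurora and Polo kinases, and it ends when the anaphase-promoting complex, activated by Cdc20, marks cyclin B for destruction. E2F factors drive the replication genes around entry into S phase, and the DREAM and FOXM1-MYB-MuvB complexes act through CHR elements, often beside CCAAT boxes, on the mitosis genes. T cells turn both programmes on after antigen stimulation, and TGF-beta is known to restrain T cell proliferation.

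The promoters of 4 members are printed to show these elements in genes whose values recur below: Mcm5 of the helicase ring, Cdc20, the B-type cyclin gene Ccnb2, and Mki67, whose protein coats mitotic chromosomes. Each is 300 bases of RefSeq sequence on GRCm38.p6, from 250 bases before to 50 after the gene start, written 5′ to 3′ on the gene's strand. Capitals mark matches on either strand to 4 E2F octamers (TTTGGCGC, TTTCCCGC, TTTGCCGC, TTTCGCGC), to the CHR hexamer TTTGAA or its variant with letters TTCGAA, or to CCAAT. The windows are chr8:75109259-75109558 (+) for Mcm5, chr4:118437294-118437593 (-) for Cdc20, chr9:70421505-70421804 (-) for Ccnb2 and chr7:135716330-135716629 (-) for Mki67.
Mcm5: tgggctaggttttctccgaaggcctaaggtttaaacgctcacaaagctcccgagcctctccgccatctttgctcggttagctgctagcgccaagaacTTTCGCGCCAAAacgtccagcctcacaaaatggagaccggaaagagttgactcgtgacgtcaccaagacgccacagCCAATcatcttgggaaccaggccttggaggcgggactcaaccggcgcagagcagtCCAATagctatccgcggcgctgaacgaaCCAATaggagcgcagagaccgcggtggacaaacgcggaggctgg
Cdc20: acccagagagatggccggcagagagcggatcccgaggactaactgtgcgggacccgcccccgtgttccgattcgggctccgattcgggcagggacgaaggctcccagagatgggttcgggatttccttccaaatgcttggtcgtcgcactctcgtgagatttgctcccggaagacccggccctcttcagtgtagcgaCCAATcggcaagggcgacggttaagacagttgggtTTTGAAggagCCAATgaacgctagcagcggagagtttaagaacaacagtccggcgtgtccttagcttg
Ccnb2: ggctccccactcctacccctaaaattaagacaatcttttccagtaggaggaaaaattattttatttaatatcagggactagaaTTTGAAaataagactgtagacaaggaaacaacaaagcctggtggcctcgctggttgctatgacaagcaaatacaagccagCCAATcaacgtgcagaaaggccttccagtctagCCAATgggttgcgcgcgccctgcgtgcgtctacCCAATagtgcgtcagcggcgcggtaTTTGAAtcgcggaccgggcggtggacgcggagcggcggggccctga
Mki67: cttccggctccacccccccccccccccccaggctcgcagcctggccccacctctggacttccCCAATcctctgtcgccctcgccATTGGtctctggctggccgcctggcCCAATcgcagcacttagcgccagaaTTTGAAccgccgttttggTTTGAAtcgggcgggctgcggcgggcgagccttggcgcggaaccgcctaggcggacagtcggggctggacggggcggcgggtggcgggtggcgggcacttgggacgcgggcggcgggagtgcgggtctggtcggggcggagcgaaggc
The Mcm5 window holds 2 overlapping E2F matches, on opposite strands, and 3 CCAAT matches, and no CHR match. Cdc20 holds 1 CHR and 2 CCAAT matches, and Ccnb2 and Mki67 hold 2 CHR and 3 CCAAT matches each. None of these 3 mitosis windows holds an E2F match.

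Promoter windows were found for 33 of the 42 members, 16 for replication and 17 for mitosis. No window was used for Kif20a, Gins1, Tpx2, Foxm1, Aurkb, Mcm4, Ccna2, Ccne2 and Gins2. An E2F octamer was present in 5 of 16 replication windows (31.2%) and 1 of 17 mitosis windows (5.88%), against 2.26% of all 32851 windows. A CHR hexamer was present in 2 of 16 replication windows (12.5%) and 13 of 17 mitosis windows (76.5%), against 19.2% of all windows. CCAAT was present in 10 of 16 replication windows (62.5%) and 15 of 17 mitosis windows (88.2%), against 37.4% of all windows. These are matches of letters and say nothing of binding in these cells.

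The libraries fell into 2 sets by depth, the shallower one (WT and the first KO libraries) at 17121030 to 18479090 reads and the deeper one (the KO repeats, Il4-/- and Il4-/-KO) at 28003231 to 33802781. Il4-/- and WT therefore lie wholly in different sets. The deposited value counts the whole gene, so RNA outside a deleted part is included, and Tgfbr2, at 5803 to 13816 normalized counts, does not check a genotype. The sort was checked with T cell markers. Cd4 stood at 12165 to 40172 and Cd3e at 13302 to 33606 normalized counts in all 10 libraries, Cd8a at 0 to 783 and Cd8b1 at 112 to 468. The 2 WT libraries had the lowest Cd4 (12165 and 13115, against 21531 or more elsewhere). They also had the highest Cd8a (227 and 783, against 133 or less elsewhere). Cd8b1 and Lck did not set them apart. Cd8b1 was 468 and 343 in WT, against 348 and 462 in KO replicate 2. Lck was 21701 and 45813 in WT, against 16899 to 49604 elsewhere. RNA of other cells was also present. The mammary epithelial keratin gene Krt18 ranged from 2981 normalized counts in Il4-/-KO replicate 1 to 55536 in WT replicate 1, and the macrophage gene Lyz2 from 856 in WT replicate 1 to 28932 in Il4-/- replicate 2.

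On the deposited scale, the mean of the replication genes was highest in KO and that of the mitosis genes in Il4-/-KO, and both were lowest in Il4-/-. The mean log2(normalized count + 1) over the 20 replication genes was 10.33 ± 0.056 in Il4-/-KO, 10.57 ± 0.43 in KO, 9.78 ± 0.33 in Il4-/- and 10.18 ± 0.38 in WT (SD, n = 2 each). Over the 22 mitosis genes it was 10.40 ± 0.19 in Il4-/-KO, 9.78 ± 0.64 in KO, 9.48 ± 0.28 in Il4-/- and 9.81 ± 0.68 in WT. Set against the mean of the core T cell list, the order was another: the replication mean minus that mean was -3.48 in Il4-/-KO, -3.58 in KO, -3.68 in Il4-/- and -3.35 in WT. For the mitosis mean it was -3.41 in Il4-/-KO, -4.36 in KO, -3.98 in Il4-/- and -3.71 in WT. For replication genes the 2 replicates lay 0.61 apart in KO, 0.53 in WT, 0.47 in Il4-/- and 0.079 in Il4-/-KO. For mitosis genes they lay 0.90 apart in KO, 0.97 in WT, 0.40 in Il4-/- and 0.27 in Il4-/-KO. By gene, KO had the highest mean of the 4 genotypes for 16 of 20 replication genes, and Il4-/- had the lowest for 14. Among mitosis genes, KO had the highest mean for 12 and Il4-/-KO for 10 of 22, and Il4-/- had the lowest for 16. In these sorted bulk samples, fewer dividing cells and less RNA per dividing cell cannot be told apart.

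**Figure D1:**
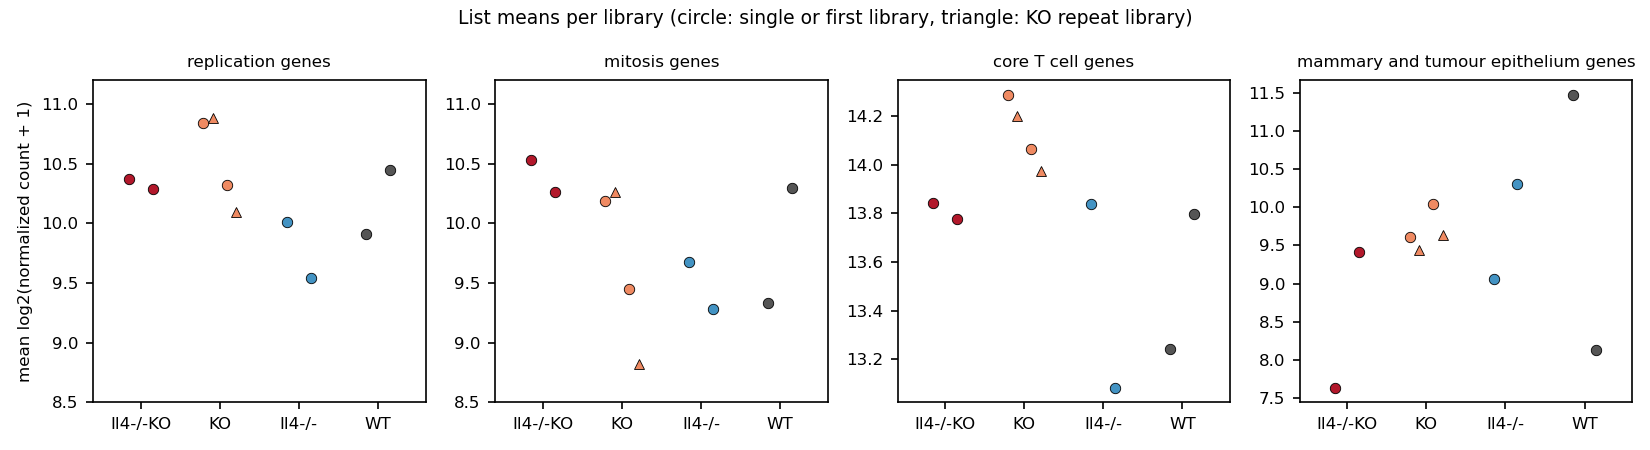
Mean log2(normalized count + 1) of 4 gene lists in each library, with genotypes on the x axis (circles, single or first libraries; triangles, KO repeat libraries; the y axes start above 0 and differ between lists). Il4-/-KO replicates lie close together for replication genes (10.37 and 10.29), while WT replicates lie at 9.91 and 10.44, and the replicate with the lower value in WT and in Il4-/- is also the one lower in core T cell genes (13.24 in WT, 13.08 in Il4-/-).

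In each of the 4 genotypes, the replicate with the lower mean of both lists also had the lower mean of the core T cell list, by 0.068 in Il4-/-KO, 0.21 in KO, 0.75 in Il4-/- and 0.56 in WT. The library with the lowest mitosis mean of all, the repeat of KO replicate 2 at 8.82, had a core T cell mean of 13.97. That was the lowest of the 4 KO libraries but above every Il4-/-KO, Il4-/- and WT library (13.84 or less). The mean of the core T cell list was 13.24 in WT replicate 1 and 13.08 in Il4-/- replicate 2, against 13.78 to 14.29 in the other 8 libraries. WT replicate 1 had the highest mean of the epithelial list (11.47, against 7.64 to 10.31 elsewhere), and Il4-/- replicate 2 had the highest mean of the macrophage list (11.78, against 6.71 to 9.47 elsewhere). Il4-/- replicate 2 had the lowest value of the 8 replicates for 15 of 20 replication genes and 10 of 22 mitosis genes. KO replicate 1 had the highest for 13 of 20 and 10 of 22, and its libraries also stood apart in neutrophil RNA, with list means of 6.97 and 6.96, against 1.35 to 4.43 in the other 8 libraries. The part of other cells' RNA in the results below was not tested.

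Per base of transcript, Mcm6 was the most abundant member, with a mean over the genotypes of 2893 normalized counts per kilobase, followed by Pcna at 1884 and the centromeric histone gene Cenpa at 1618. The least abundant were the kinetochore genes Cenpe at 55.2 and Cenpf at 37.9 normalized counts per kilobase. No member was at 0 in any library except the checkpoint kinase gene Bub1, at 0 in the repeat library of KO replicate 2. A count of 0 there allows up to 3 reads or 2.84 normalized counts. This bound holds for that library and not for its RNA, since the first library of the same RNA had 179.9.

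With Il4 absent, the cell cycle genes stood higher where Tgfbr2 was deleted. Between Il4-/-KO and Il4-/-, 18 of 20 replication genes and 20 of 22 mitosis genes had a positive log2 difference, with medians of 0.62 and 1.05, while 47.6% of all tested genes were positive and their median was -0.03. For 28 of the 42 genes (13 replication, 15 mitosis), both Il4-/-KO libraries lay above both Il4-/- libraries. The same held for 16.8% of all tested genes. No member lay wholly lower, against 16.2% of all genes. No member passed the threshold of 0.05 on limma's Benjamini-Hochberg adjusted p, nor did any other gene (0%). At an unadjusted p under 0.05, 15 members were higher (3 replication, 12 mitosis), against 1.3% of all genes, while edgeR called no gene (0%) and DESeq2 called 51 genes (0.352%), none of them a member.

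In the helicase ring, all 6 Mcm genes were higher in Il4-/-KO, by 0.36 to 1.02 on the log2 scale. Mcm3 had 4079.6 and 4332 normalized counts in Il4-/-KO, against 2548 and 1697 in Il4-/-, a log2 difference of 1.02 ± 0.37 (SE). Mcm5 had 4011 and 4439 in Il4-/-KO, against 2994 and 1822 in Il4-/- (log2 difference 0.85 ± 0.32), and Mcm2 had 3628 and 5128 in Il4-/-KO, against 2759.7 and 2466 in Il4-/- (0.73 ± 0.41). In all 3 the genotypes did not overlap, and Il4-/- replicate 2 was the lowest. Tyms, which makes thymidylate, had 1385 and 1303 normalized counts in Il4-/-KO, against 724 and 531 in Il4-/-, the largest log2 difference of the replication list at 1.11 ± 0.41. Pcna had 3388 and 3337 in Il4-/-KO, against 2629 and 1517 in Il4-/- (log2 difference 0.75 ± 0.45). Rrm2, the regulated subunit of ribonucleotide reductase, had 2960.0 and 2567 in Il4-/-KO, against 2262 and 1752 in Il4-/- (0.47 ± 0.45). Both genes were without overlap, but within about 1 to 2 standard errors of no difference. The 2 replication genes with a negative difference were the GINS subunit gene Gins1 and the licensing factor gene Cdt1.

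The mitosis genes differed by more. All 4 genes of CDK1 and its A and B cyclins were higher without overlap in Il4-/-KO, by 0.80 to 1.43 on the log2 scale. So were the 3 mitotic kinase genes Aurka, Aurkb and Plk1 (0.97 to 1.08). The same held for Cdc20 and Ube2c, whose proteins act with the anaphase-promoting complex (1.13 to 1.14). Ccnb1, which encodes cyclin B1, had 1037 and 901 normalized counts in Il4-/-KO, against 411 and 521 in Il4-/-, a log2 difference of 1.06 ± 0.42. Cdc20 had 1399 and 2105 in Il4-/-KO, against 747 and 810.3 in Il4-/- (1.14 ± 0.35). Kif20a, a kinesin of cytokinesis, had 929.5 and 962 in Il4-/-KO, against 287 and 477 in Il4-/- (1.35 ± 0.39), and had the smallest unadjusted p of the 42. Its limma adjusted p was 1, and over the alternatives it ran from 0.369 to 1. Bub1b, which encodes the spindle checkpoint protein BubR1, had 1614 and 1178 in Il4-/-KO, against 654 and 663 in Il4-/- (1.07 ± 0.35). Aurkb, the kinase that corrects faulty spindle attachments, had 1143 and 1260.0 in Il4-/-KO, against 694 and 465 in Il4-/- (1.08 ± 0.42).

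Overlap was seen for 7 mitosis genes, the centromere genes Cenpa, Cenpe and Cenpf, Foxm1, Kif11, Mki67 and Top2a. Cenpa had 3110.0 and 1696 normalized counts in Il4-/-KO, against 2342 and 1345 in Il4-/- (0.37 ± 0.42). Cenpe, a kinetochore motor, had 1092 and 248 normalized counts in Il4-/-KO, against 565 and 499 in Il4-/-, so the Il4-/-KO replicates lay on either side of Il4-/-. Cenpf had 944 and 321 in Il4-/-KO, against 639 and 482 in Il4-/-. The log2 differences of Cenpe and Cenpf, -0.03 and -0.01, were the only negative ones of the list. Mki67 had 5099.6 and 2569 in Il4-/-KO, against 2637 and 1741 in Il4-/- (0.76 ± 1.14), with overlap. Beside these differences, the macrophage list was lower in Il4-/-KO than in Il4-/- in 12 of 12 genes (median -1.28) and the epithelial list in 13 of 15 (median -0.72), and their part in the result was not tested. Without Il4-/- replicate 2, the medians of Il4-/-KO against Il4-/- were 0.37 for replication and 0.82 for mitosis genes. The core T cell list was itself higher in Il4-/-KO, in 11 of 12 tested genes with a median of 0.38. Set relative to the mean of that list, a scaling added after seeing the data, the medians were 0.27 and 0.70 and that of all genes -0.38, so the 2 lists lay 0.64 and 1.08 above all genes.

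**Figure D2:**
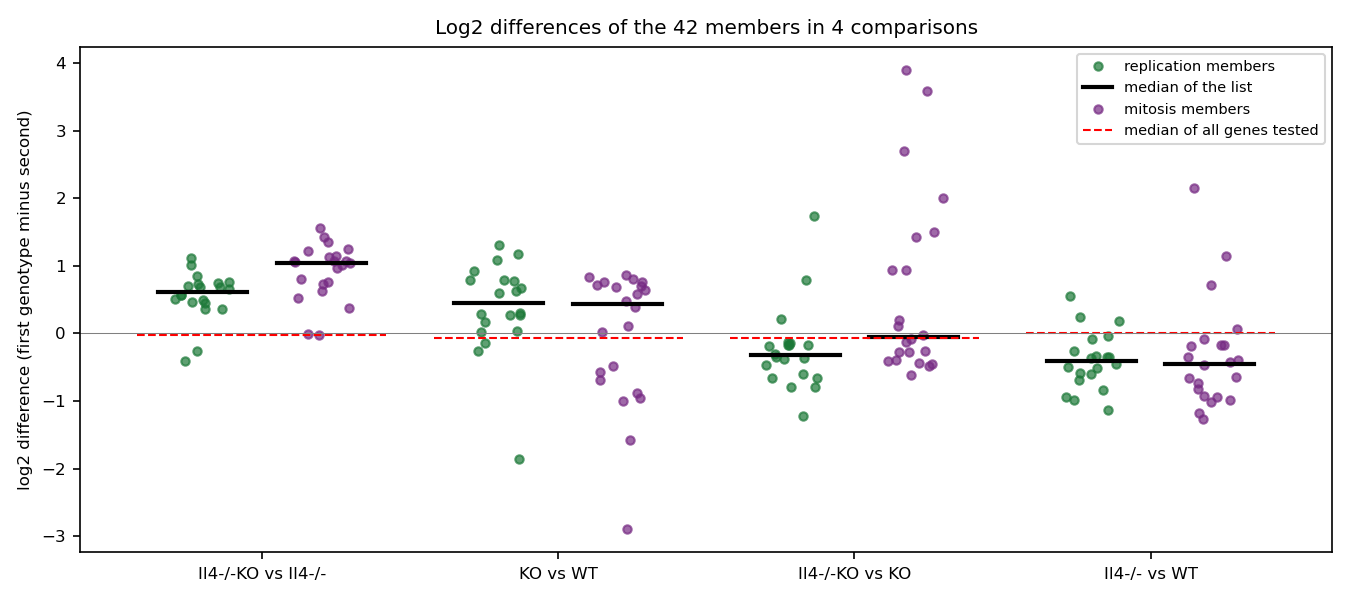
Log2 differences (y axis, first genotype minus second) of the 20 replication and 22 mitosis genes in 4 comparisons (x axis), with the median of each list (black bars) and of all tested genes (red dashes). Both lists lie mostly above 0 in Il4-/-KO vs Il4-/- (medians 0.62 and 1.05) and mostly below it in Il4-/- vs WT (-0.41 and -0.44), and the mitosis list spreads up to 3.90 in Il4-/-KO vs KO.

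With Il4 intact, most replication genes stood higher in KO than in WT, a direction of the median that turned relative to the core T cell list, and the mitosis genes were divided. Of the replication genes 17 of 20 and of the mitosis genes 14 of 22 had a positive log2 difference, against 46.7% of all genes. The medians were 0.45 and 0.44, and that of all genes -0.07. All 4 KO libraries lay above both WT libraries for 13 members (8 replication, 5 mitosis), against 10% of all genes, and for no member below them, against 12.5%. At an unadjusted p under 0.05, 6 members were higher (5 replication, 1 mitosis), against 5.19% of all genes. By limma's adjusted p, 1 gene of 14473 (0.00691%) was called and no member, edgeR called no gene, and DESeq2 called 527 genes (4.03%) and 1 member, Mcm5.

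Mcm5 had 5469 and 5179 normalized counts in the first and repeat libraries of KO replicate 1 and 4231 and 6589 in those of KO replicate 2, against 2084 and 2732 in WT. All 4 KO values exceeded both WT values, at a log2 difference of 1.17 ± 0.32 and a limma adjusted p of 0.345. DESeq2 on the recovered reads gave 1.20 and an adjusted p of 0.0441, and the adjusted p over the alternatives ran from 0.0441 to 0.761. Cdc45, a helicase partner of the ring, had 1153, 814, 755 and 887 normalized counts in the 4 KO libraries, against 342 and 384 in WT. Its log2 difference of 1.31 ± 0.42 (limma adjusted p = 0.353) was the largest positive one of the 42. Tk1, the thymidine kinase of S phase, had 1423, 1435, 1157 and 1562 in KO, against 825 and 647 in WT (0.93 ± 0.35, limma adjusted p = 0.384). These 3 genes lay apart from WT in all libraries, and no WT value came within the KO range.

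Other replication genes overlapped. Mcm2 had 4475, 4574, 4457 and 9362 in KO, against 2292 and 4692 in WT (log2 difference 0.77 ± 0.41), so 3 KO libraries lay below WT replicate 2. Pcna had 4444, 4425, 2426 and 1342 in KO, against 2674 and 3018 in WT (0.02 ± 0.45), and Rrm2 had 7026, 5928, 3969 and 1851 in KO, against 2621 and 4811 in WT (0.29 ± 0.45). In both genes KO replicate 1 lay above WT and the repeat library of KO replicate 2 lay below it. Neither E cyclin gene was higher in KO: Ccne2 had 115, 183, 30.2 and 12.3 in KO, against 90.9 and 477 in WT.

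Among mitosis genes, Cdc20 had 1763, 2095, 1795 and 3964 normalized counts in KO, against 1186 and 1415 in WT (log2 difference 0.86 ± 0.35, limma adjusted p = 0.396). Plk1, the Polo kinase gene, had 767, 1167, 1188 and 1502 in KO, against 595 and 689 in WT (0.83 ± 0.39), and with Cdc20, Aurka, Cenpa and Ube2c made up the 5 mitosis genes without overlap. Aurkb had 1598, 1881, 1047 and 803 in KO, against 682 and 813 in WT (0.77 ± 0.42), with overlap through a single KO library. Ccnb1 had 1251, 1752, 1136 and 351 in KO, against 972 and 1118 in WT (0.02 ± 0.42), with KO values on both sides of WT. The lowest differences of the list were those of Cenpe and Cenpf. Cenpe had 122, 138, 18.4 and 8.51 in KO, against 128 and 819 in WT (-2.90 ± 1.29, limma adjusted p = 0.425), where WT replicate 1 was as low as KO replicate 1. Mki67 had 360.2, 511, 143 and 125 in KO, against 126 and 1838 in WT (-0.996 ± 1.14), and its sign turned without WT replicate 2 (0.93).

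**Figure D3:**
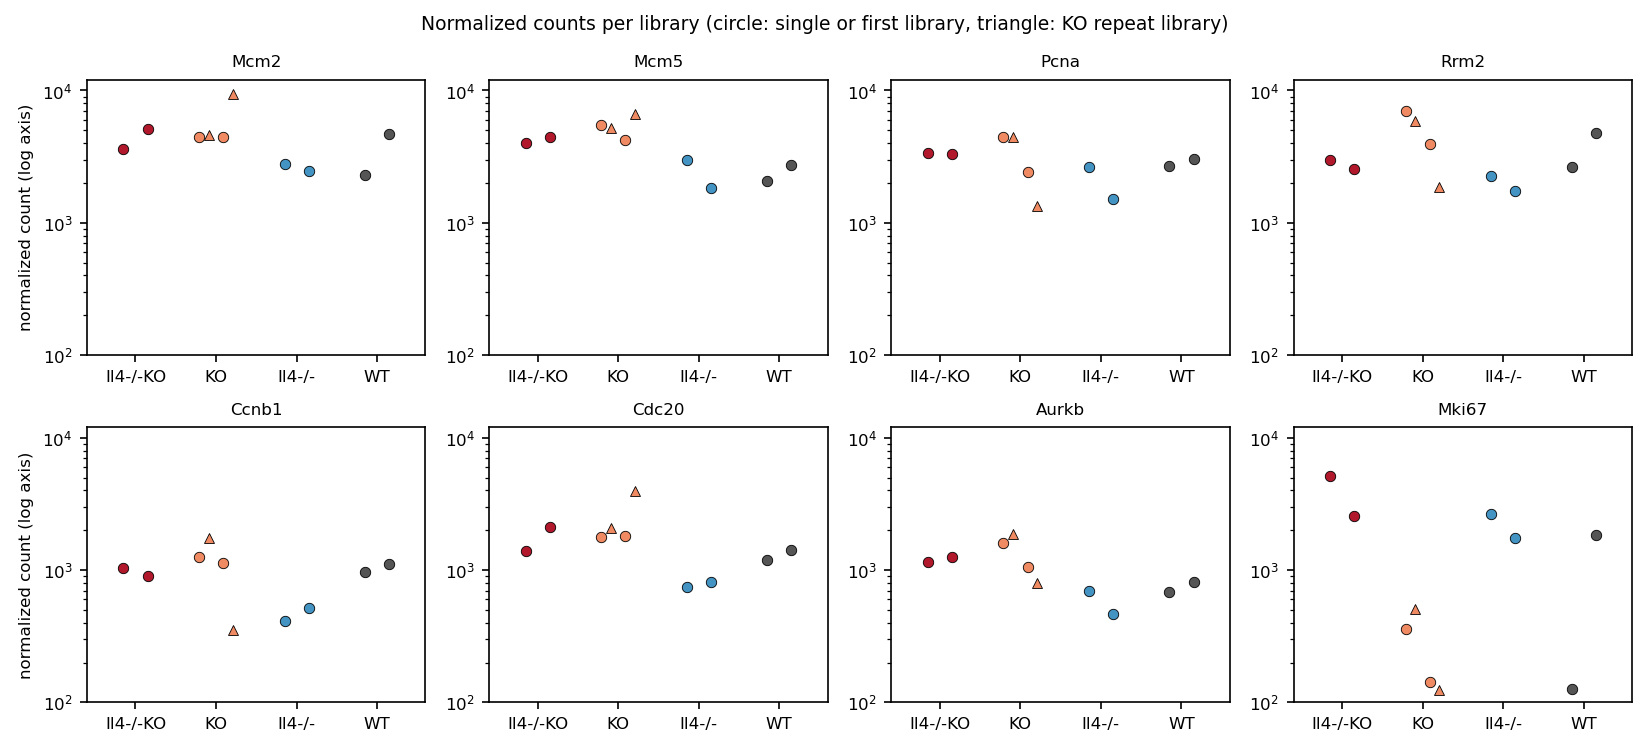
Normalized counts per library (y axis, log scale) of 8 members by genotype (x axis); circles are single or first libraries and triangles are KO repeat libraries. Mcm5 and Cdc20 lie higher in Il4-/-KO and KO than in Il4-/- and WT with no overlap within a background, while Mki67 lies at 125 to 511 in KO and at 126 and 1838 in WT.

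The KO against WT medians rested on single replicates. Without KO replicate 1, the one high in neutrophil RNA, they were 0.15 for replication and 0.0088 for mitosis genes, and without KO replicate 2 they were 0.70 and 0.55. Without WT replicate 1 they were 0.19 and 0.17, and without WT replicate 2 they were 0.67 and 0.64. Within the shallower set, with the first KO libraries alone, they were 0.50 and 0.37. The core T cell list was higher in KO for 11 of 12 genes, with a median of 0.75, so scaling to its mean turned the medians of the members to -0.17 and -0.18. The same scaling put the median of all genes at -0.70, 0.52 below the replication and 0.51 below the mitosis median.

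Taking the mean of both Tgfbr2 comparisons, 18 of 20 replication and 18 of 22 mitosis genes were higher with Tgfbr2 deleted (45% of all genes), with medians of 0.53 and 0.70 and a median of all genes of -0.08. For 18 members (7 replication, 11 mitosis) the unadjusted p was under 0.05 and the difference positive, against 4.66% of all genes. In 6 members all 6 libraries with the deletion lay above all 4 without it, against 2.05% of all genes. Limma called 3 genes (0.0207%) and no member, edgeR called 2 genes (0.0138%) and no member, and DESeq2 called 331 (2.43%), with Mcm5 and Cdc20 among them. Mcm5 had a limma log2 difference of 1.01 ± 0.23 with an adjusted p of 0.301, against 0.0128 by DESeq2, and a range of 0.0128 to 0.719 over the alternatives. Cdc20 had 1.002 ± 0.25 with a limma adjusted p of 0.34, against 0.0182 by DESeq2, and a range of 0.0182 to 0.786. The helicase partner Cdc45 (1.03 ± 0.29), Tk1 (0.81 ± 0.25), the survivin gene Birc5 (0.90 ± 0.26), Plk1 (0.90 ± 0.27) and Aurkb (0.92 ± 0.29) had limma adjusted p-values from 0.387 to 0.43. The other examples were Mcm2 at 0.75 ± 0.29, Pcna at 0.39 ± 0.32, Rrm2 at 0.38 ± 0.32, Ccnb1 at 0.54 ± 0.30 and Mki67 at -0.12 ± 0.81.

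Separation without overlap on both backgrounds, each against its own controls, was seen for 9 members, against 4.06% of all genes. These were the replication genes Cdc45, Gins2, Mcm5, Mcm7 and Tk1 and the mitosis genes Aurka, Cdc20, Plk1 and Ube2c. A positive difference on both backgrounds was seen for 15 of 20 replication and 14 of 22 mitosis genes, against 26.5% of all genes, and a negative one on both for 0 and 2, against 31.8%. With libraries relative to the core T cell mean, the medians over both backgrounds were 0.04 and 0.21, and those lay 0.61 and 0.78 above that of all genes.

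Whether the effect of Tgfbr2 deletion differed between the Il4 backgrounds was tested by the interaction, the difference in Il4-/-KO against Il4-/- minus that in KO against WT. Its median was 0.06 over replication genes, with 10 of 20 positive, and 0.80 over mitosis genes, with 20 of 22 positive, against 50.2% of all genes and a median of 0.004. No member or other gene had an adjusted p under 0.05 by limma or edgeR (0%), DESeq2 called 35 genes (0.242%) and no member, and 1 member had an unadjusted p under 0.05 with a positive difference (1.68% of all genes). That was Nusap1, which bundles spindle microtubules, at 2.44 ± 0.94 (limma adjusted p = 0.988). It had 2491 and 2191 normalized counts in Il4-/-KO and 1090.3 and 577 in Il4-/-, and 1948, 1478, 793 and 91.7 in KO and 1149 and 2255 in WT. Its KO values alone ran from 91.7 to 1948, with both libraries of replicate 2 below those of replicate 1. Kif20a had an interaction of 1.24 ± 0.56 and Tpx2, which activates Aurora A, one of 1.58 ± 0.79. The smallest unadjusted p among replication genes were those of Cdt1 (-1.34 ± 0.62), Ccne2 (2.43 ± 1.68) and Tyms (0.81 ± 0.58). The fixed examples had interactions of -0.04 ± 0.58 for Mcm2, 0.73 ± 0.63 for Pcna, 0.18 ± 0.64 for Rrm2, 1.04 ± 0.59 for Ccnb1, 0.31 ± 0.59 for Aurkb and 1.75 ± 1.62 for Mki67. The mitosis median was 0.30 without WT replicate 2, 0.49 without KO replicate 2 and 1.28 without KO replicate 1.

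In Tgfbr2-deleted cells, Mki67 stood far higher where Il4 was absent. Mki67 had 5099.6 and 2569 normalized counts in Il4-/-KO, against 360.2 and 511 in KO replicate 1 and 143 and 125 in KO replicate 2. Both Il4-/-KO values exceeded all 4 KO values, at a log2 difference of 3.90 ± 1.14. The limma adjusted p was 0.338, that of DESeq2 0.0147, and the range over the alternatives 0.0147 to 0.955. Cenpe had 1092 and 248 in Il4-/-KO, against 122, 138, 18.4 and 8.51 in KO (3.58 ± 1.29, limma adjusted p = 0.367), and Cenpf had 944 and 321 in Il4-/-KO, against 112, 157, 61.7 and 42.6 in KO (2.70 ± 1.04, limma adjusted p = 0.39). In both genes Il4-/-KO replicate 2 was far nearer to KO than replicate 1 was. These 3 were the members with an unadjusted p under 0.05, all higher. Their share of the members was no greater than the share of all genes that were higher at that p, 8.53%.

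Most of the other members did not follow Mki67, Cenpe and Cenpf. The medians were -0.32 for replication genes (0.01 relative to the core T cell list, where that of all genes was 0.27), with 3 of 20 positive, and -0.05 for mitosis genes, with 10 of 22 positive, against a median of -0.07 over all genes and 46.5% positive. Without KO replicate 1 the medians were -0.05 and 0.31 and 26 of the 42 members were positive, against 13 with it, and without KO replicate 2 the medians were -0.49 and -0.22. Without overlap, 8 members were higher (1 replication, 7 mitosis; 16.2% of all genes) and 7 lower (6 replication, 1 mitosis; 12.4%). No member or other gene was called by limma (0%), and DESeq2 called 393 genes (2.88%), of the members Mki67 alone. All 4 helicase partner genes and all 5 genes of nucleotide supply had negative differences. Mcm10, which helps start unwinding, had 320.0 and 188 in Il4-/-KO, against 444, 878, 508 and 481 in KO (-1.22 ± 0.65), and the dUTPase gene Dut had 1570.2 and 1159.7 in Il4-/-KO, against 2904, 2689.6, 2042 and 1884 in KO (-0.80 ± 0.44). Cdt1 had 996 and 1222 in Il4-/-KO, against 1347, 1656, 1636 and 3223 in KO (-0.79 ± 0.44). These 3 genes had the smallest unadjusted p of the replication list, and none had one under 0.05. The fixed examples differed by -0.37 ± 0.41 for Mcm2, 0.22 ± 0.45 for Pcna, -0.66 ± 0.45 for Rrm2, -0.13 ± 0.42 for Ccnb1 and -0.08 ± 0.42 for Aurkb. The epithelial list was lower in Il4-/-KO in 13 of 15 genes (median -1.78), and with its mean as a covariate the Mki67 difference was 2.63.

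In cells with Tgfbr2 intact, most members stood lower where Il4 was absent. Between Il4-/- and WT, 17 of 20 replication and 18 of 22 mitosis genes had a negative difference, with medians of -0.41 and -0.44 and a median of all genes of 0.006 (50.3% positive). Both Il4-/- libraries lay below both WT libraries for 18 members (7 replication, 11 mitosis), against 14.6% of all genes, and above them for none, against 14.7%. At an unadjusted p under 0.05, 3 members were lower (1.46% of all genes), all of the mitosis list. Limma called no gene (0%), and DESeq2 called 31 (0.227%) and no member. Kif20a had 287 and 477 normalized counts in Il4-/-, against 876 and 900.4 in WT (-1.26 ± 0.39), Ccnb1 had 411 and 521 in Il4-/-, against 972 and 1118 in WT (-1.17 ± 0.42), and Aurka had 346 and 301 in Il4-/-, against 590.1 and 647 in WT (-0.94 ± 0.37). In each the WT replicates lay close together and above Il4-/-. All 3 limma adjusted p-values were 1, and over the alternatives they ran from 0.469 to 1.

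The replication genes with the smallest p in Il4-/- against WT were Tyms (-0.94 ± 0.41), Rrm2 (-0.83 ± 0.45) and Ccne1 (-0.98 ± 0.55), and none had an unadjusted p under 0.05. Mcm2 differed by -0.33 ± 0.41, Pcna by -0.51 ± 0.45 and Aurkb by -0.39 ± 0.42. Mki67 went the other way, with 2637 and 1741 in Il4-/-, against 126 and 1838 in WT (2.15 ± 1.14), and without WT replicate 1 the difference was 0.22. The medians without Il4-/- replicate 2 were -0.15 for replication and -0.28 for mitosis genes, without Il4-/- replicate 1 -0.64 and -0.69, without WT replicate 1 -0.65 and -0.81, and without WT replicate 2 -0.24 and -0.29. A fit to all 10 libraries with a term for the depth set gave -0.30 and -0.22. That fit counted the 2 libraries of a KO replicate as separate samples, and its depth term rests on the KO pairs alone. Il4-/- against WT shares its WT samples with KO against WT and its Il4-/- samples with Il4-/-KO against Il4-/-. High WT values or low Il4-/- values therefore enter both.

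Within the mitosis list the differences followed the length of the transcript, the longest principal transcript of the gene. Across the 22 genes, Spearman's rho between length and log2 difference was 0.825 in Il4-/-KO against KO, -0.729 in KO against WT, 0.595 in Il4-/- against WT and -0.501 in Il4-/-KO against Il4-/-. These share samples, and the genes are not independent replicates. Over all 14216 genes with a length the same values were 0.276, -0.216, 0.252 and -0.166. Among the 20 replication genes they were 0.235, 0.011, -0.051 and 0.144. The longest transcripts are those of Cenpf (11130.0 bases), Mki67 (10061 bases) and Cenpe (7910.0 bases), the 3 genes with the largest differences in Il4-/-KO against KO.

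Split at 4000 bases, a length chosen after the values were seen, 9 members were long (8 mitosis, 1 replication) and 33 short. In KO against WT the long genes had a median of -0.56, with 3 of 9 positive, and the short genes 0.58, with 28 of 33 positive. The long genes had a median of 0.94 in Il4-/-KO against KO, and the short genes one of -0.28. Long and short genes lay close in Il4-/-KO against Il4-/-, at 0.71 and 0.76. In Il4-/- against WT they stood at -0.17 and -0.50. After a trend of all genes on length was removed from each library, rho over the mitosis genes was 0.5 in Il4-/-KO against KO and -0.477 in KO against WT, and the difference of Mki67 was 2.93, that of Cenpe 2.81 and that of Cenpf 1.65 in Il4-/-KO against KO. The list medians hardly moved, to 0.60 and 1.02 in Il4-/-KO against Il4-/- and 0.54 and 0.48 in KO against WT.

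**Figure D4:**
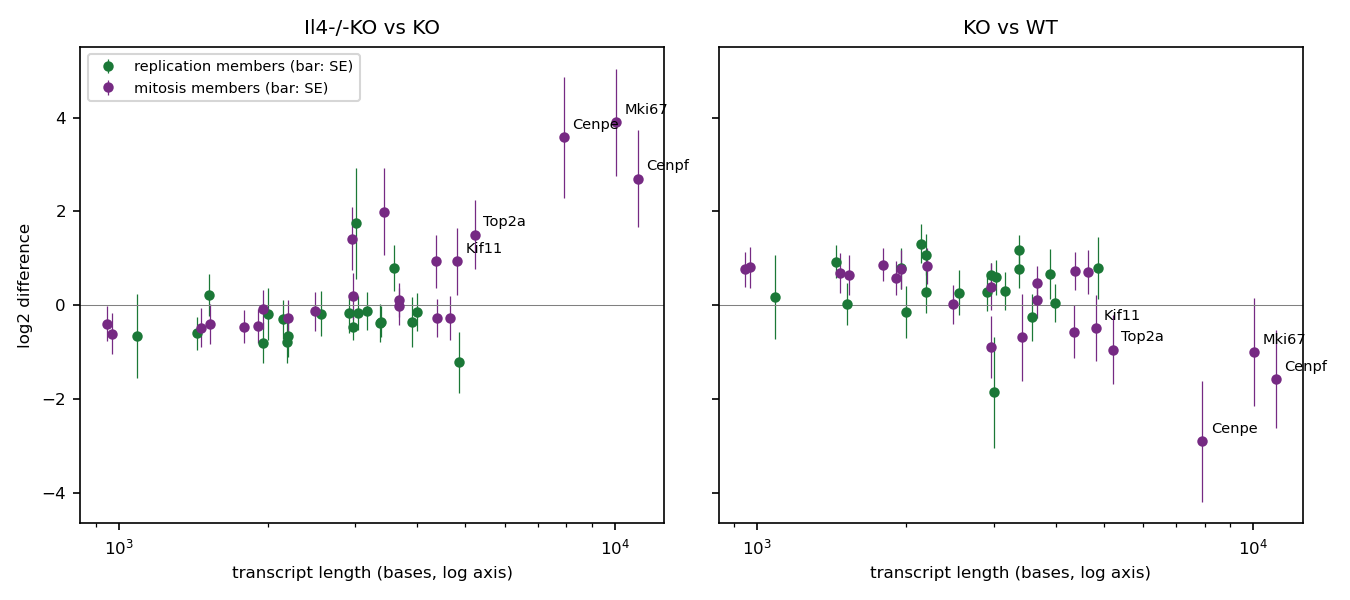
Log2 difference (y axis, with SE bars) of the 42 members against transcript length in bases (x axis, log scale) in Il4-/-KO vs KO (left) and KO vs WT (right). The long mitosis genes Mki67 and Cenpe lie at 3.90 and 3.58 on the left and at -0.996 and -2.90 on the right.

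The pairs of libraries made from the same RNA differ in preparation and in depth set, which cannot be told apart. The repeat libraries had more reads but fewer genes detected, 12891 in KO replicate 1 and 12459 in KO replicate 2. Their first libraries had 14131 and 14421, and no other library had fewer than the 2 repeats. The cause was not tested. In KO replicate 1 the repeat differed from the first library by a median of 0.23 log2 units in size over the 42 genes, and by over 2-fold for none. In KO replicate 2 the median was 0.52, and 10 genes differed over 2-fold. Its repeat library was lower for Bub1 (0 in the repeat, 179.9 in the first library), for Ccne1 (143 in the repeat, 589.6 in the first), for Nusap1 (91.7 in the repeat, 793 in the first) and for Ccnb1 (351 in the repeat, 1136 in the first). It was higher for Mcm2 (9362 in the repeat, 4457 in the first) and for Cdc20 (3964 in the repeat, 1795 in the first). The median of all 42 differences was -0.18 in this pair and 0.003 in KO replicate 1. The median differences of Il4-/-KO against KO with the first libraries alone were -0.31 for replication and 0.10 for mitosis genes.

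Further genes of the same processes were described from lists of 38 replication genes, 45 mitosis genes (44 in the table) and 31 regulators of G1 and S phase. On the Il4-deficient background, in Il4-/-KO against Il4-/-, 35 of 38 further replication and 41 of 44 further mitosis genes were positive. Of all genes 47.6% were positive, and the medians of the 2 lists were 0.41 and 0.78. The G1 and S regulators were divided, with 21 of 31 positive and a median of 0.19. Of them 8 were wholly higher, against 16.8% of all genes, and 2 wholly lower, against 16.2%. In this comparison, 1 gene of the 3 lists passed the threshold in DESeq2, against 0.352% of all genes. This was Spc24, a subunit of the NDC80 kinetochore complex, with 835 and 1087 normalized counts in Il4-/-KO, against 281 and 242 in Il4-/- (limma log2 difference 1.86 ± 0.39, adjusted p = 1; DESeq2 adjusted p = 0.011, the lowest over its alternatives, which ran to 1). In KO against WT the medians were 0.10 and -0.16, with 21 of 38 and 19 of 44 positive, against 46.7% of all genes. DESeq2 called 1 further mitosis gene there, lower in KO, and no further replication gene, against 4.03% of all genes. In Il4-/- against WT the medians were -0.41 and -0.46, with 30 of 38 and 30 of 44 negative, while 50.3% of all genes were positive. Between Il4-/-KO and KO they were -0.05 and 0.42, with 17 of 38 and 28 of 44 positive, against 46.5% of all genes. DESeq2 called 3 further mitosis genes there, against 2.88% of all genes. All 3 were higher, with Ttk and Smc4 among them. Ttk had 536 and 314 in Il4-/-KO, against 52.9, 42.5, 51.2 and 0 in KO (3.51 ± 0.76, adjusted p = 0.321 by limma and 0.00123 by DESeq2). Smc4 had 6953 and 4016 in Il4-/-KO, against 1113, 806, 437 and 230 in KO (3.22 ± 0.89, adjusted p = 0.331 by limma and 0.0126 by DESeq2). No gene of the 3 lists passed limma's threshold in any of the 6 comparisons.

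Among the G1 and S regulators, E2f2, an activator of S phase genes, had 974 and 1225 normalized counts in Il4-/-KO, against 525 and 534 in Il4-/-. In KO it had 1086 and 2078 in replicate 1 and 788 and 1445 in replicate 2, against 411 and 509.6 in WT. It was higher on both backgrounds without overlap. The mean log2 difference was 1.29 ± 0.26, with an adjusted p of 0.245 by limma and 0.000894 by DESeq2, and a range of 0.000894 to 0.703 over the alternatives. Rb1, the retinoblastoma gene that holds E2F factors in check, had 820.4, 606, 676 and 186 in KO, against 1709.8 and 2593 in WT (-1.92 ± 0.42), with an adjusted p of 0.321 by limma and 0.00669 by DESeq2, and up to 0.752 over the alternatives. On the Il4-deficient background Rb1 overlapped, with 2563 and 1402 in Il4-/-KO, against 2946 and 2479 in Il4-/-. Between Il4-/-KO and KO, the inhibitor genes of cyclin-dependent kinases went opposite ways. Cdkn1a, which encodes p21, had 2178 and 2615 in Il4-/-KO, against 12694, 9749.6, 5991 and 7874 in KO (-1.89 ± 0.40), with an adjusted p of 0.321 by limma and 0.00262 by DESeq2. Cdkn1b, which encodes p27, had 1635 and 1445 in Il4-/-KO, against 535, 594, 444 and 669 in KO (1.45 ± 0.30), with an adjusted p of 0.321 by limma and 0.00454 by DESeq2. For both, the alternatives ran up to 0.955. Both genes went the same way where Tgfbr2 was intact. Cdkn1b had 1708 and 1506 in Il4-/-, against 694 and 636 in WT (1.27 ± 0.305, adjusted p = 0.0755 by DESeq2). Cdkn1a had 1761 and 3414 in Il4-/-, against 4443 and 5471 in WT.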

How the data were processed

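The deposited signal was a normalized read count per gene and library, a count divided by 1 size factor per library. Per the labels' protocols, RNA was amplified by SMART-Seq v4, which marks no molecules, so reads are not molecules. Per the submitters' processing notes, bcl2fastq 2.18.0, STAR and DESeq2 were used on build mm10. The counter, its annotation and its use of strand are not given in the sources used here. All values (100%) were whole multiples of 1 read within 0.001 reads, which recovered 17121030 to 33802781 reads per library, 1 read being worth 0.644 to 1.47 normalized counts. Of 17370 rows, 7 had no gene name (0.0029% to 0.0205% of reads) and were left out.

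First and repeat KO libraries were averaged. Limma 3.58.1 (R 4.3.3, trend on mean expression) was fitted to log2(normalized count + 1) of the 14473 genes over all 4 genotypes, two-sided, with Benjamini-Hochberg adjustment over all genes and a threshold of 0.05. This scale understates differences of low genes. EdgeR 4.0.16 (quasi-likelihood) and DESeq2 1.42.0 (Wald), also with Benjamini-Hochberg adjustment, were run on the recovered reads, with KO libraries summed. Lists were described by counts and medians. Transcript lengths are those of the longest APPRIS principal transcript in GENCODE vM21, and promoters are RefSeq windows. The fit was run on simulated data, with planted differences larger than those of most members and genes drawn independently. That run says nothing of differences as small as most seen here. Figures were drawn with matplotlib 3.10.9.

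The members and lists were chosen with earlier results of these data known. Genes were named by a rule: 6 fixed examples (Mcm2, Pcna, Rrm2, Ccnb1, Mki67, Aurkb), and in each comparison the 3 genes of each list with the smallest p that reached 50 normalized counts, with up to 2 from each wider list. Other genes named were chosen after their values were seen. Alternatives covered the pseudocount, the filter, scaling, variance trend, KO libraries, depth set, length trend, epithelial RNA, the core T cell list, omission of each replicate and a replicate block.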

Additional observations from a re-analysis of the deposited data

How the results depend on the processing

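With 2 replicates a genotype, only large differences could pass a threshold over 14473 genes. Over 25 alternatives, 105 log2 differences of named genes gave 2589 values, of which 2524 kept their direction and side of the threshold, 51 turned and 14 passed the threshold where limma's main value had not. Medians of the 2 lists kept their sign in Il4-/-KO against Il4-/- and in Il4-/- against WT in all 25, and in KO against WT in 24. Part of this agreement was fixed in advance, since settings that altered only samples outside a comparison could not move its log2 differences. In Il4-/-KO against Il4-/-, the medians stayed at 0.6162 and 1.0492 with each choice of KO libraries and without any KO or WT replicate. Dropping the variance trend or adding the replicate block left the log2 differences as they were. Where a value moved, the cause was not tested. Fitting only the genotypes compared does not apply to the mean effect or the interaction.

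Counts of all genes called moved with the tool: DESeq2 called 51 in Il4-/-KO against Il4-/-, 527 in KO against WT, 393 in Il4-/-KO against KO, 31 in Il4-/- against WT, 331 for the mean effect of Tgfbr2 deletion and 35 for the interaction. In Il4-/-KO against Il4-/-, 1 gene was called with quantile normalization, without the repeat library of KO replicate 2, and with the epithelial covariate. In KO against WT, 2 were called with quantile normalization and with no variance trend, 9 with the epithelial covariate, and 0 with only these genotypes, the repeat KO libraries alone, the depth term, the replicate block, edgeR or the core T cell scaling, and 0 (lowest and highest) without any 1 replicate. For the mean effect, 8 were called with quantile normalization, 0 with no variance trend, 40 with the epithelial covariate, 1 with the core T cell scaling and 0 to 4 without 1 replicate. The replicate block, which called 0 genes in KO against WT, changed no other call. Correlations of same-numbered deviations ran from -0.358 to 0.236, positive among Il4-/-KO, KO and Il4-/- and negative with WT. With 2 replicates a genotype, they cannot show whether replicate numbers paired the samples.

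Relative to the core T cell list, the replication and mitosis medians were 0.27 and 0.70 in Il4-/-KO against Il4-/-, -0.17 and -0.18 in KO against WT, 0.01 and 0.28 in Il4-/-KO against KO, and 0.041 and 0.21 for the mean effect, beside medians of all genes of -0.38, -0.70, 0.27 and -0.57. The interaction median of mitosis genes was 0.43 with the epithelial covariate. Without 1 replicate, the mitosis median ran from 0.0088 to 0.64 in KO against WT, from -0.22 to 0.31 in Il4-/-KO against KO, from -0.81 to -0.28 in Il4-/- against WT and from 0.30 to 1.28 in the interaction, whose replication median ran from -0.14 to 0.52.

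These log2 differences turned. In Il4-/-KO against Il4-/-, Mki67 was -0.41 with the epithelial covariate. In KO against WT, Pcna, Rrm2 and Ccnb1 were -0.22, -0.10 and -0.41 with the repeat KO libraries alone and -0.60, -0.33 and -0.60 with the core T cell scaling, and Pcna was -0.14 with the length trend removed. Between Il4-/-KO and KO, Ccnb1 was 0.30 with the repeat KO libraries alone and with the depth term and 0.21 with the core T cell scaling, and Aurkb was 0.059 with the length trend removed and 0.25 with the core T cell scaling. In Il4-/- against WT, Ccne1 was 0.20 with the depth term. For the mean effect, Mki67 was 0.075 with quantile normalization and 0.31 with the length trend removed, and Pcna and Rrm2 were -0.10 and -0.11 with the core T cell scaling. In the interaction, Mcm2 was 0.059 with quantile normalization, 0.28 with the first KO libraries alone and with the depth term, 0.27 without the repeat library of KO replicate 2 and 0.23 with the core T cell scaling. Rrm2 there was -0.10 with the first KO libraries alone and with the depth term, -0.044 without that repeat library and -0.13 with the epithelial covariate.

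Without 1 replicate, log2 differences in KO against WT ran from -0.59 to 0.64 for Pcna, -0.29 to 0.87 for Rrm2, -0.49 to 0.53 for Ccnb1 and -2.92 to 0.93 for Mki67. Between Il4-/-KO and KO they ran from -0.40 to 0.84 for Pcna, -0.63 to 0.38 for Ccnb1 and -0.54 to 0.38 for Aurkb. In Il4-/- against WT they ran from -0.85 to 0.19 for Mcm2, and for the mean effect from -1.08 to 0.84 for Mki67. In the interaction they ran from -0.56 to 0.47 for Mcm2, -0.40 to 0.76 for Rrm2, -0.15 to 0.77 for Aurkb and -0.17 to 3.68 for Mki67.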
